A study of Mus musculus with 2 samples.

Results

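The ER and cytosolic chaperones are 36 genes that were chosen by symbol, each found once among the 27998 genes of both libraries. They comprise 15 genes of protein folding in the endoplasmic reticulum (ER), 4 of ER-associated decay, the ER stress sensor Atf6, 3 of translocation into the ER, 9 cytosolic heat shock genes, 3 mitochondrial chaperones and the heat shock regulator Hsf1. Of these, 34 reached 5 CPM (unique molecular identifiers, UMIs, of a gene per 1e+06 UMIs of the library) in at least 1 library, and the stress-inducible Hspa1a and Hspa1b did not. The study compared Trmt6 WT with Trmt6 conditional knockout (cKO) haematopoietic stem and progenitor cells (HSPCs) to learn how loss of the tRNA m1A methyltransferase subunit TRMT6 alters these cells. Lin- Sca-1+ c-Kit+ (LSK) cells were sorted from the bone marrow of 3-month-old mice on a C57BL/6 background and profiled by droplet single-cell RNA sequencing from the 3' end. There was 1 library per genotype, and how many mice went into each is not given in the sources used here. The labels give the WT library as Trmt6fl/fl and the cKO library as Trmt6fl/fl with MX1-cre. The study's figure legend for this experiment describes Mx1-Cre and injection of pIpC in both genotypes, with Trmt6+/+ as the control. Mx1-Cre is an interferon-inducible recombinase, so deletion is not limited to blood cells. Genotype, library and, if the labels are right, the recombinase cannot be told apart, and the comparison has no replicates and carries no p-value.

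Proteins that enter the secretory pathway are folded in the ER by the HSP70 protein BiP (Hspa5), the HSP90 protein GRP94 (Hsp90b1), the lectins calnexin and calreticulin and the protein disulfide isomerases, while misfolded chains are sent back to the cytosol for decay. Unfolded protein in the ER activates the sensors ATF6, IRE1 and PERK, and the first of these drives chaperone genes through the ER stress response element (ERSE). Proteins made in the cytosol are folded by other HSP70 and HSP90 proteins with their J-domain partners, whose stress-inducible members are driven by HSF1. In the marrow, granulocyte precursors and plasma cells are rich in ER because they make granule proteins or antibodies.

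Promoters are shown because many ER folding genes share an element that was not found in the cytosolic and mitochondrial promoters searched. RefSeq promoters (GRCm38.p6, 250 bases before to 50 bases after the start of transcription) were matched for 28 of the 36 genes. Manf, Hyou1, Atf6, Hspa8, Hsp90aa1, Hsp90ab1, Hspa9 and Hsf1 had no entry. The ERSE, taken as CCAAT and CCACG with 9 bases between on either strand, was held by 8 of the 28 promoters. They were 7 of 13 ER folding promoters and that of Syvn1, with 0 of 6 cytosolic promoters. Among all 32851 promoters, 39 held it (0.119%). The CCAAT box alone, which overlaps the ERSE, was far less selective, in 24 of the 28 promoters and in 37.4% of all promoters. The sites are printed with CCAAT and CCACG in capitals, in the orientation of the motif.
Hspa5, chr2:34772025-34772043: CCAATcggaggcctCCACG
Hsp90b1, chr10:86705638-86705656: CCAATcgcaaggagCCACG
Hsp90b1, chr10:86705533-86705551: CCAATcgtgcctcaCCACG
Calr, chr8:84847075-84847093: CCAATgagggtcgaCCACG
Canx, chr11:50325800-50325818: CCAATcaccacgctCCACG
Pdia6, chr12:17266491-17266509: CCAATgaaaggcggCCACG
Dnajc3, chr14:118937827-118937845: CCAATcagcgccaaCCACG
Creld2, chr15:88819520-88819538: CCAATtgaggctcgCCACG
Syvn1, chr19:6046532-6046550: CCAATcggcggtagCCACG

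A match is a description of the letters and not evidence of a factor at work. The promoter of Hspa5 is given whole as the best known of the ER set, with the ERSE in capitals, its last base 47 bases before the start (chr2:34771840-34772139, plus strand).
Hspa5: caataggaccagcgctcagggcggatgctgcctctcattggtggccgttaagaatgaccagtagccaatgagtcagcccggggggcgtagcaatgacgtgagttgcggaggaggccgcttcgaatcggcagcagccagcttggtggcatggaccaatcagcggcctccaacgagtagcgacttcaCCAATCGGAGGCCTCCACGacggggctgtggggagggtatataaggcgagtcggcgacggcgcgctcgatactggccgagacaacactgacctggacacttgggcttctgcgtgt
The heat shock element was searched as 3 alternating units of GAA and TTC with 2 bases between units, on either strand. It stood in 198 promoters (0.603%) and in 3 of the 28, those of Hsph1, Hspd1 and Hspe1. Hsph1 was thus 1 of 6 cytosolic promoters with a match, and its match lies after the start of transcription. Hspd1 and Hspe1 lie head to head on chromosome 1, and their elements are the same bases read from opposite strands. The Hspe1 promoter is shown with its 2 overlapping matches in capitals (chr1:55087898-55088197, plus strand).
Hspe1: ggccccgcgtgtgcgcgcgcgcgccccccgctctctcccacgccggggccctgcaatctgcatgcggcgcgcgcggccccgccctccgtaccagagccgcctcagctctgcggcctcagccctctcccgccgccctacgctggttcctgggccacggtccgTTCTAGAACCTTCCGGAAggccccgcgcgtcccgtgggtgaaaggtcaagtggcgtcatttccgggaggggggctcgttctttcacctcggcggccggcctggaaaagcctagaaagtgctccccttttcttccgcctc
The third promoter is that of Herpud1, the only one of the 28 that held TGATGNAA, a composite element bound by ATF4 with a C/EBP protein. This search was added after Herpud1 was seen to be higher in cKO, and the element stood in 3.97% of all promoters. It lies between 112 and 105 bases upstream on the opposite strand (capitals, chr8:94386179-94386478, plus strand).
Herpud1: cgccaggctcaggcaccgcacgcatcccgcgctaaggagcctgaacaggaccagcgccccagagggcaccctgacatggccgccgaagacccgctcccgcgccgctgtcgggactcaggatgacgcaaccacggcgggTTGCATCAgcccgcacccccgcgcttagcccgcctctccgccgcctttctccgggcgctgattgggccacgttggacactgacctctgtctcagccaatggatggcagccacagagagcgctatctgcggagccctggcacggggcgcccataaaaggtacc

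The WT library held 8869 barcodes and the cKO library 9260, with 47991455 and 98323201 UMIs. Filtering left 8142 WT cells and 8475 cKO cells, whose medians were 4288 and 10153 UMIs. The libraries shared 24 barcodes. The sort markers Kit (63.0 CPM in WT, 21.2 CPM in cKO) and Ly6a, which encodes Sca-1 (33.8 and 142 CPM), were detected in both. Trmt6 was at 64.0 CPM (WT) and 50.4 CPM (cKO), and whether the counted 3' end lies in the deleted part is not given in the sources used here. The libraries stood apart in 2 further programmes. The 15 ATF4 target genes summed to 390 CPM in WT and 1813 CPM in cKO, and the 15 immediate early genes to 5895 and 1378 CPM. All intervals below are 95% intervals that cover counting error only. They are narrower for genes with more UMIs, and counts of intervals above or below 0 were not matched for level between gene sets. A gene is called higher or lower where its log2 ratio of cKO over WT reached 0.5 or -0.5, which is a threshold of size and not a test.

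Over all cells, the mitochondrial chaperones and Herpud1 were higher in the cKO library, while several ER folding genes and the cytosolic co-chaperone Dnajb1 were lower. Of the 34 genes at the minimum level, 5 were called higher and 5 lower, against 9.03% and 17.5% of the 9137 genes at that level. Hspa9, Herpud1, Hspe1, Dnaja1 and Hspd1 were called higher, and Dnajb1, Calr, Dnajb9, Sdf2l1 and Pdia4 lower. The median log2 ratio over the 34 genes was 0.09, beside -0.06 over all genes at the minimum level. The counting interval lay above 0 for 17 of them and below 0 for 11, and over all genes for 3069 and 4152 of the 9137.

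**Figure D1:**
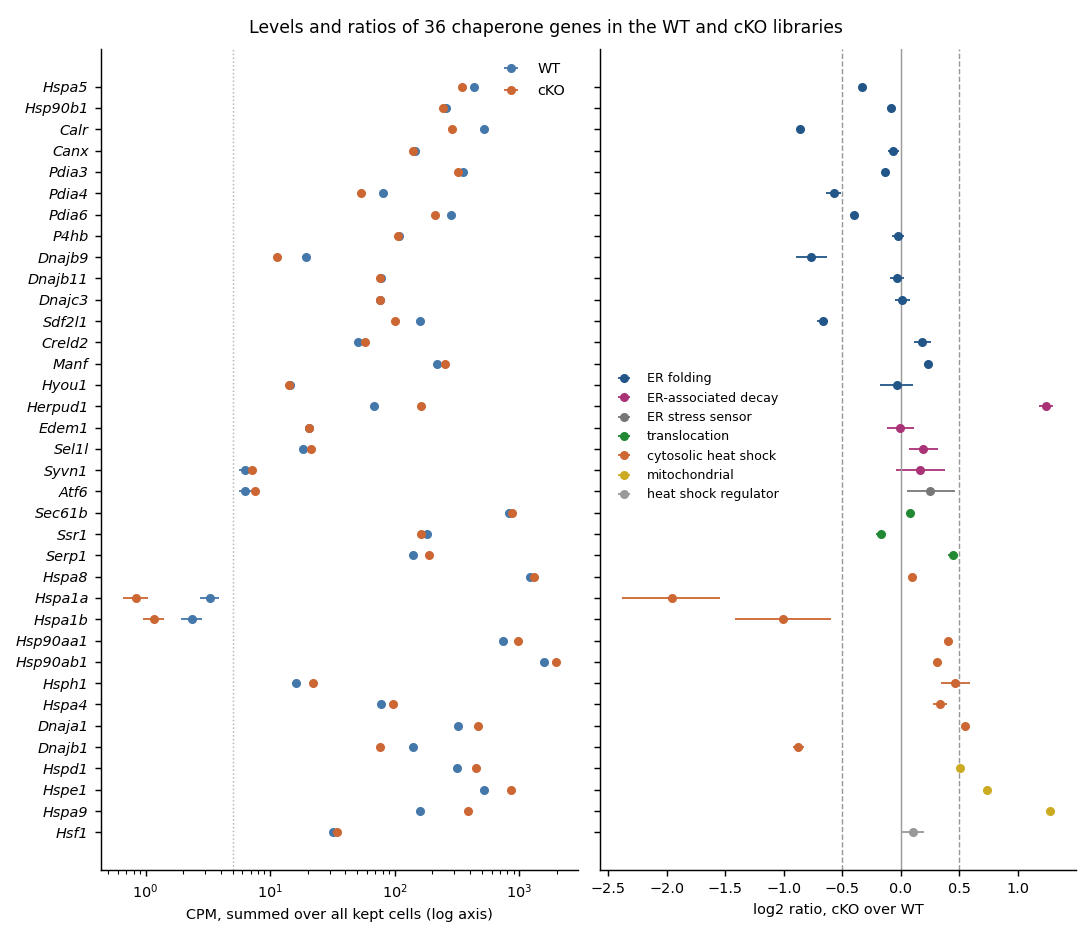
CPM of the 36 chaperone genes summed over all kept cells of the WT and cKO libraries (left, log axis, dotted line at 5 CPM) and the log2 ratio of cKO over WT (right, dashed lines at -0.5 and 0.5), with bars for the 95% counting interval and 1 library per group. Herpud1 and Hspa9 lie beyond 1 on the log2 scale, and 12 of the 15 ER folding genes lie left of 0.

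Among the 15 ER folding genes, 0 were called higher and 4 lower, against 9.03% and 17.5% of all genes, with a median log2 ratio of -0.09 beside -0.06 over all genes. Their summed level was 2805 CPM in WT and 2306 CPM in cKO. The sum was higher in cKO in most of the groups of cells compared below, and the sign of the median changed between settings. The lectin calreticulin made the largest part of the WT sum and of the difference between the libraries. Calr (chr8:84841850-84846934, minus strand) was at 524 CPM in WT cells and 287 CPM in cKO cells, log2 ratio -0.87 (-0.89 to -0.84), whereas its membrane-bound relative Canx was nearly level at 146 and 140 CPM. BiP, the central ER HSP70, was at 432 CPM in WT against 344 CPM in cKO (log2 ratio -0.33, -0.36 to -0.30). GRP94, the ER HSP90, differed less, with Hsp90b1 at 260 and 245 CPM (-0.09).

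The disulfide isomerases, which form and reshuffle disulfide bonds, differed among themselves. Pdia4 was at 80.0 CPM (WT) and 53.7 CPM (cKO) (log2 ratio -0.58, -0.64 to -0.51), and Pdia6 at 282 and 213 CPM (-0.40). Pdia3, the partner of calreticulin and calnexin, was at 356 and 325 CPM (-0.13), and P4hb at 107 and 105 CPM (-0.03). The J-domain co-chaperones of BiP split likewise. Dnajb9 (ERdj4), which restrains IRE1, was at 19.4 CPM in WT cells and 11.4 CPM in cKO cells (-0.77, -0.90 to -0.63). Dnajb11 stood at 77.7 and 76.1 CPM (-0.03) and Dnajc3, also an inhibitor of eIF2alpha kinases, at 76.1 and 76.8 CPM (0.01). Sdf2l1, which works with Dnajb11 to keep clients soluble, was at 161 and 101 CPM (-0.67, -0.72 to -0.62). Hyou1, the nucleotide exchange factor of BiP, was level at 14.5 and 14.1 CPM (-0.04). The small secreted ER stress proteins leaned the other way, with Manf at 217 CPM in WT against 255 CPM in cKO (0.23, 0.20 to 0.27) and Creld2 at 50.9 and 57.8 CPM (0.18).

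The ERSE, in the single form searched, did not sort the genes by their ratio. The 8 genes that held it ranged from Calr at -0.87 to Creld2 at 0.18, and of the called ER folding genes Pdia4, Dnajb9 and Sdf2l1 had no match in the window searched.

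In ER-associated decay, Herpud1 stood apart from the other 3 genes. Herpud1 (chr8:94386438-94395377, plus strand), which organises the retrotranslocation complex, was at 68.3 CPM in WT (2945 UMIs) and 161 CPM in cKO (14225 UMIs), which is a log2 ratio of 1.24 (1.18 to 1.30). Sel1l and Syvn1, the adaptor and the ubiquitin ligase of that complex, were at 18.5 and 21.1 CPM (0.19) and at 6.33 and 7.09 CPM (0.16, -0.04 to 0.37). Edem1, which marks misfolded glycoproteins for decay, was at 20.6 and 20.5 CPM (-0.01), but 18.0% of its cKO UMIs came from the 34 Jchain-high cells described below. Without them its log2 ratio was -0.29. The sensor Atf6 was at 6.33 and 7.55 CPM (0.25, 0.05 to 0.46).

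None of the 3 translocation genes was called. Serp1, which stabilises newly made membrane proteins, came closest at 140 CPM (WT) and 190 CPM (cKO) (log2 ratio 0.45, 0.40 to 0.49). Sec61b, a subunit of the translocation channel, was at 834 and 880 CPM (0.08), and Ssr1, a subunit of the complex beside the channel, at 182 and 162 CPM (-0.17).

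Of the 7 cytosolic genes at the minimum level, 1 was called higher (Dnaja1) and 1 lower (Dnajb1), against 9.03% and 17.5% of all genes. The counting interval lay above 0 for 6 of the 7, beside 3069 of 9137 over all genes, the median of the 7 was 0.34, and the sum of the 7 was 4121 CPM in WT and 4943 CPM in cKO. The HSP90 pair was led by the constitutive Hsp90ab1 at 1591 and 1975 CPM (0.31), with the more inducible Hsp90aa1 at 745 and 987 CPM (0.41). The constitutive HSP70 Hspa8 was nearly level at 1231 and 1316 CPM (0.10). Its exchange factors Hspa4 (77.5 and 97.8 CPM, 0.34) and Hsph1 (16.1 and 22.2 CPM, 0.47) were higher. The J-domain partners pointed in opposite directions. Dnaja1 was at 321 CPM in WT cells and 470 CPM in cKO cells (0.55, 0.52 to 0.58), and Dnajb1 (chr8:83608193-83612653, plus strand), the stress-inducible partner of HSP70, at 139 and 76.0 CPM (-0.88, -0.93 to -0.83). Hspa1a was at 3.27 and 0.839 CPM (141 and 74 UMIs) and Hspa1b at 2.34 and 1.17 CPM (101 and 103 UMIs). They are near-identical copies on chromosome 17, so reads could be split between them, and both were under the minimum level. Hsf1, the regulator of the heat shock genes, was at 32.2 and 34.6 CPM (0.10, 0.01 to 0.20).

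All 3 mitochondrial chaperones were called higher, against 9.03% of all genes, with a sum of 995 CPM in WT and 1703 CPM in cKO. Hspa9 (mortalin), the mitochondrial HSP70 that pulls proteins through the inner membrane, was at 161 CPM in WT against 390 CPM in cKO, the largest ratio of the 36 genes at 1.28 (1.24 to 1.31). Of the chaperonin pair that folds proteins in the matrix, Hspd1 (HSP60) was at 315 and 447 CPM (0.51, 0.48 to 0.53) and Hspe1 (HSP10) at 519 and 866 CPM (0.74, 0.72 to 0.76). Hspd1 stood at the edge of the threshold and was called in 11 of 13 alternative settings, the lowest at 0.49. Calr, Dnaja1, Hspa9, Hspd1 and Hspe1 have named processed pseudogenes in the annotation, so part of their reads may have been discarded or assigned elsewhere.

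For Hspa9, Herpud1 and Dnajb1 the share of cells with a UMI had the direction of the CPM once each cell was thinned to 2000 UMIs, which removes the gap in depth. Hspa9 was seen in 24.6% of 7956 WT cells and 50.1% of 8375 cKO cells, and Herpud1 in 12.8% and 25.6%. Before thinning, with the depths unequal, the shares were 48.0% and 89.8% for Hspa9 and 27.8% and 71.1% for Herpud1. Dnajb1 went the other way, from 25.6% of WT to 14.7% of cKO cells after thinning, while its unthinned share was 46.9% and 52.5%. For several ER folding genes the share went against the CPM, as for Hsp90b1 (32.7% and 36.3%) and Pdia3 (44.0% and 46.6%), so no order was read from these shares. Summed per thinned cell, the 9 cytosolic genes gave 7.84 UMIs in WT and 9.76 UMIs in cKO (SD 3.40 and 3.51 over cells), and the 3 mitochondrial genes 1.80 and 3.22 UMIs (SD 1.51 and 2.08). The 15 ER folding genes gave 4.70 UMIs in WT and 4.55 UMIs in cKO (SD 3.30 and 2.82), and the median cell held 4 UMIs in both.

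Cells were then gated by lineage markers after thinning, and levels were compared within each gate. The WT library held 1146 cells of the HSC gate, 673 of the LMPP or early lymphoid gate, 1360 of the granulocyte-monocyte progenitor (GMP) gate, 251 of the megakaryocyte gate and 141 of the erythroid gate. The cKO library held 1573, 153, 92, 55 and 222 cells. A further 3833 WT and 5951 cKO cells passed no gate. The GMP gate thus held 17.1% of thinned WT cells and 1.10% of thinned cKO cells. Fewer GMP cells and less RNA of the gate's own genes per cell cannot be told apart in these shares. B, T or NK, mature neutrophil, MHC class II and mast or basophil gates held fewer than 50 cells in at least 1 library and were not compared.

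Among the groups of cells compared, ER folding genes were highest in the GMP gate in both libraries. Their sum was 4413 CPM in WT GMP-gated cells, beside 1948 CPM in the HSC gate, 1961 CPM in the LMPP gate, 1749 CPM in the erythroid gate, 2471 CPM in the megakaryocyte gate and 2163 CPM in cells of no gate. In cKO the GMP gate had 3633 CPM, and the other groups compared lay between 2085 CPM in the HSC gate and 2311 CPM in cells of no gate. The sign over all cells was found in 2 of these 6 groups. The sum was higher in cKO in the HSC gate (1948 to 2085 CPM), the LMPP gate (1961 to 2270 CPM), the erythroid gate (1749 to 2107 CPM) and in cells of no gate (2163 to 2311 CPM). It was lower, as over all cells, in the GMP gate (4413 to 3633 CPM) and the megakaryocyte gate (2471 to 2139 CPM). Weighting both libraries to the same mix of gates, by WT cell numbers, gave 2534 CPM in WT and 2506 CPM in cKO. This also weights the groups by cells and not by UMIs. Averaging scaled cells with no change of mix gave 2351 CPM in WT and 2263 CPM in cKO, and the parts of weighting and mix were not separated. Leaving out GMP-gated cells gave a median log2 ratio of 0.17 over the 15 genes in place of -0.09. Depth also differed within the GMP gate, with medians of 8796 UMIs in WT and 16853 UMIs in cKO, and its part in the result was not tested.

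**Figure D2:**
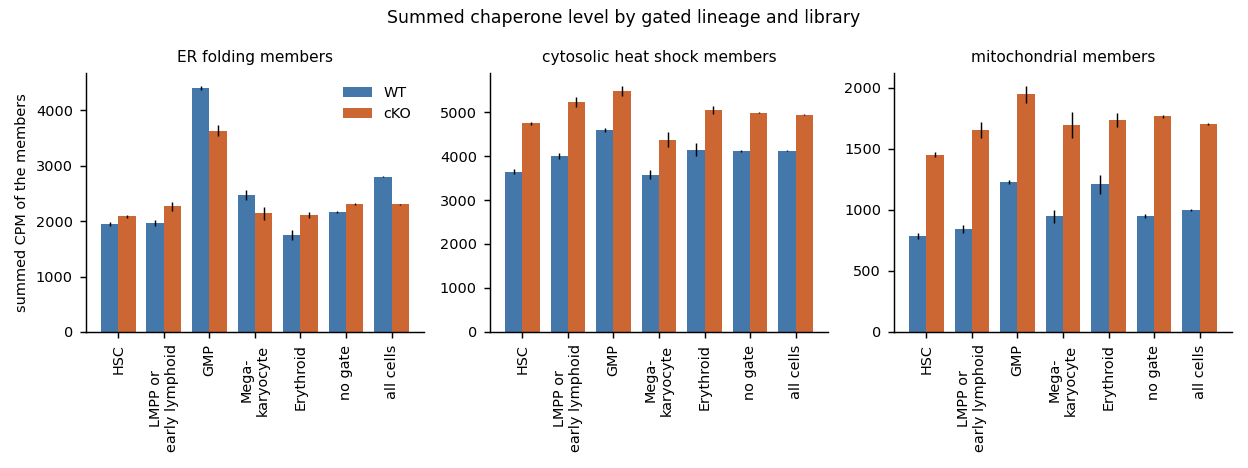
Summed CPM of the 15 ER folding, 9 cytosolic and 3 mitochondrial genes by gate in the WT and cKO libraries, with bars for the 95% counting interval. The ER folding sum peaks in the GMP gate and is lower in cKO over all cells but higher in the HSC, LMPP and erythroid gates, while the cytosolic and mitochondrial sums are higher in cKO in each gate.

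Calr followed this pattern in part. In the GMP gate it was at 922 CPM (WT) and 710 CPM (cKO), and in the HSC gate at 329 and 255 CPM (log2 ratio -0.37, -0.46 to -0.27). The megakaryocyte and erythroid gates gave 0.06 and 0.03 with intervals that span 0, so the log2 ratio of -0.87 over all cells was found in no gate. Sdf2l1 was at 294 and 175 CPM in the GMP gate (-0.75, -0.93 to -0.57) but at 70.7 and 83.8 CPM in the HSC gate (0.24, 0.06 to 0.44). Dnajb9 differed from these, with 24.7 CPM in WT and 12.5 CPM in cKO in the HSC gate (-0.99, -1.35 to -0.61), -1.24 in the LMPP gate (-2.23 to -0.44) and -0.36 in the GMP gate (-1.24 to 0.34).

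In the HSC gate, 11 of 34 genes were called higher and 2 lower, against 9.88% and 24.2% of all genes at the minimum level there. Those called higher included the 3 mitochondrial genes, Herpud1 (70.7 CPM in WT, 135 CPM in cKO, 0.93), Hsph1 (11.2 and 21.8 CPM, 0.95) and Manf (141 and 223 CPM, 0.66, 0.53 to 0.79). The rest were Atf6 (0.63, -0.11 to 1.54), P4hb, Creld2, Serp1 (each 0.51) and Dnaja1 (0.50). Dnajb1 and Dnajb9 were lower. With the gate set on scaled counts (180 WT and 74 cKO cells), P4hb, Serp1 and Hspd1 turned to -0.38, -0.42 and -0.027. The ER folding median was 0.12 in this gate, beside -0.13 over all its genes.

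In the LMPP or early lymphoid gate, 12 of 34 were called higher and 2 lower (13.5% and 24.5% of all genes). Herpud1 was at 69.4 CPM in WT cells and 192 CPM in cKO cells (1.47, 1.20 to 1.74), and Hspa4 at 51.3 and 109 CPM (1.09, 0.75 to 1.42), its largest ratio in any gate. Sel1l (0.90, 0.20 to 1.60), Serp1 (0.60), Canx (0.50) and Creld2 (0.51) were also called, as were Atf6 (0.93), Hsph1 (0.74) and Edem1 (0.58), whose intervals reach or nearly reach 0.

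The GMP gate gave the fewest genes called higher, 4 of 34, with 4 lower (15.2% and 15.3% of all genes). Hspa9, Herpud1, Sel1l (20.6 CPM in WT, 32.4 CPM in cKO, 0.67) and Atf6 (0.55, -0.33 to 1.26) were the higher ones. Dnajb1, Sdf2l1, Pdia4 (126 and 80.3 CPM, -0.64, -0.92 to -0.38) and Syvn1 (8.28 and 3.89 CPM, -0.98, -2.57 to 0.08) were lower. Of the 15 ER folding genes, 1 had a ratio above 0 here, beside 4489 of all 8780 genes at the minimum level in this gate.

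In the megakaryocyte gate, 9 of 32 genes were called higher and 3 lower (13.3% and 23.2% of all genes), but the 55 cKO cells left wide intervals. P4hb (0.59, 0.10 to 1.06), Hspa4 (0.70), Serp1 (0.70) and Dnaja1 (0.51) were called with the 3 mitochondrial genes, Herpud1 and Edem1 (0.83, -0.32 to 1.95). Sdf2l1 (176 and 92.9 CPM, -0.91), Dnajb1 and Hyou1 (-0.57, -2.47 to 0.85) were called lower. In the erythroid gate, 6 of 32 were called higher and 2 lower (15.6% and 18.5% of all genes). The higher ones were P4hb (51.3 CPM in WT, 92.3 CPM in cKO, 0.83, 0.35 to 1.38), Serp1 (0.82), Dnaja1 (0.65), Manf (0.53), Herpud1 and Hspa9, and the lower ones Dnajb1 and Pdia4 (-0.52, -1.02 to 0.01). In cells of no gate, 7 of 34 were called higher and 2 lower (9.81% and 21.3% of all genes). These were the mitochondrial genes, Herpud1, Serp1 (115 and 194 CPM, 0.76), Manf (0.61) and Hyou1 (0.55), with Dnajb1 and Dnajb9 lower.

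**Figure D3:**
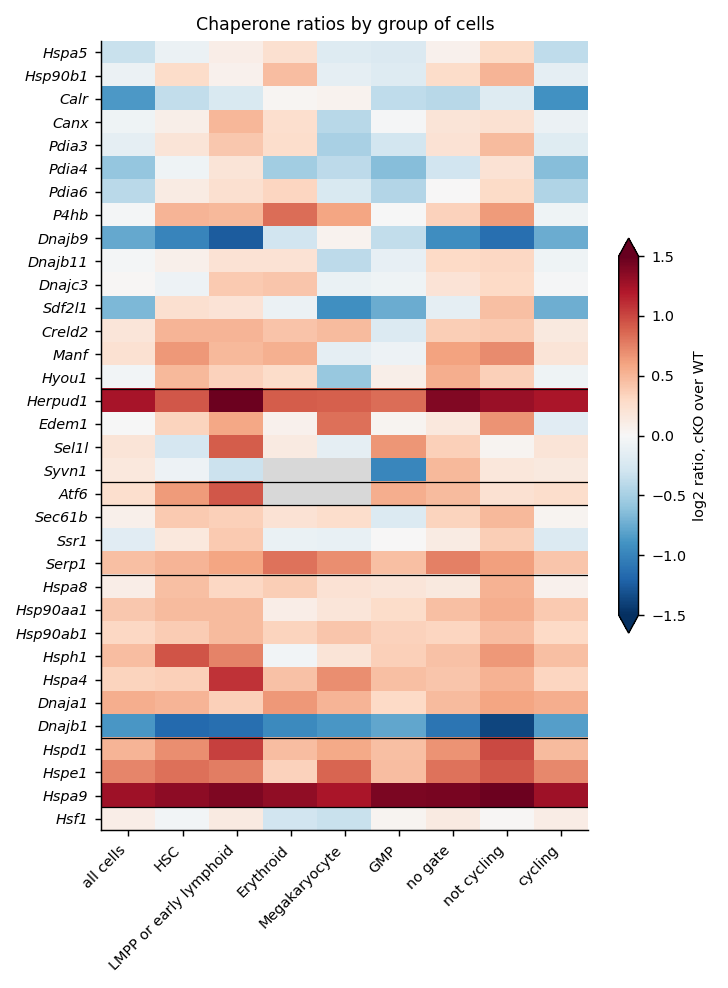
Log2 ratio of cKO over WT for 34 chaperone genes (rows, grouped by role) over all cells, in 5 gates, in cells of no gate, in cells without cycling UMIs (Jchain-high cells left out) and in cells with them. Red is higher in cKO, blue lower, and grey marks genes under the minimum level. Herpud1 and Hspa9 are red and Dnajb1 blue in each column, while the ER folding rows change sign between columns.

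Hspa9, Herpud1 and Dnajb1 kept their direction in each of the 6 groups of cells. Hspa9 was at 127 CPM in WT against 322 CPM in cKO in the HSC gate, and its log2 ratio ranged from 1.23 (0.92 to 1.54) in the megakaryocyte gate to 1.42 in the GMP gate (1.30 to 1.53) and in cells of no gate (1.36 to 1.48). Herpud1 ranged from 0.84 in the GMP gate to 1.47 in the LMPP gate. Dnajb1 was at 182 and 81.6 CPM in the HSC gate (-1.16) and at 91.3 and 53.1 CPM in the GMP gate (-0.77, -1.12 to -0.46). Hspe1 was lower in its ratio in the erythroid (0.35) and GMP gates (0.47) than in the HSC gate (0.82), and Hspd1 reached 1.02 in the LMPP gate. The cytosolic sum was higher in cKO in each gate, for example 3641 CPM in WT and 4747 CPM in cKO in the HSC gate.

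Cells were next split by 23 cycling genes. A cell is called not cycling below where it held 0 UMIs of them after thinning, which left 953 WT and 852 cKO cells. A single UMI of any of the 23 put a cell on the other side, so that 88.0% of thinned WT and 89.8% of thinned cKO cells counted as cycling. The split is therefore loose and is no call of a cell cycle phase. In these cells 17 of 34 genes were called higher and 2 lower, against 12.5% and 25.9% of all genes, and in the 7003 WT and 7523 cKO cells with a cycling UMI 4 were called higher and 5 lower, against 9.28% and 16.9%. Of the not cycling cKO cells, 18 were Jchain-high, and without these 14 genes were called higher and 2 lower, beside 1183 and 2409 of all 9363 genes. The comparison below leaves them out. Hsp90b1 was at 151 CPM (WT) and 216 CPM (cKO) in the not cycling cells (0.51, 0.36 to 0.67) and at 269 and 243 CPM in the cycling cells (-0.15). Sdf2l1 was at 52.7 and 72.1 CPM in the former (0.45, 0.19 to 0.72) and at 170 and 102 CPM in the latter.

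Within the WT library, most ER folding genes were higher in cycling than in not cycling cells, and in cKO both sets of cells lay closer together. The counting interval lay above 0 for 13 of 15 genes in WT and below 0 for 1 (Dnajb9), with a median log2 ratio of cycling over not cycling cells of 0.56. In cKO it lay above 0 for 4 of 15 and below 0 for 2, with a median of 0.08. Over all genes at the minimum level it lay above 0 for 19.3% in WT (median -0.10) and 19.7% in cKO (median -0.04), and below 0 for 26.7% and 22.0%. Of the other roles in WT, the interval lay above 0 for 3 of 3 mitochondrial, 2 of 3 translocation and 4 of 7 cytosolic genes, and in cKO for 3 of 3, 1 of 3 and 2 of 7. It lay below 0 for 1 of 7 cytosolic genes in each library and for 2 of 3 translocation genes in cKO. Sdf2l1 had the widest span in WT, from 52.7 CPM in not cycling to 170 CPM in cycling cells (1.69), against 72.1 and 102 CPM in cKO (0.49). Calr was at 312 and 542 CPM in WT (0.79) and at 273 and 288 CPM in cKO (0.08). In WT the GMP gate held 2.13% not cycling cells and the HSC gate 19.9%, so cycle and lineage overlap here, and their shares in this result were not tested. The difference between libraries was not tested across samples either.

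Cells were also binned within each library by their ATF4 genes, at 0, 1 to 2, or 3 or more UMIs after thinning. Hspa9 and Herpud1 were higher in cells with more ATF4 UMIs in both libraries, with a wider span in cKO. Hspa9 was at 152, 167 and 199 CPM in the WT bins and at 238, 330 and 436 CPM in the cKO bins. The log2 ratio of the high over the low bin was 0.39 in WT and 0.87 (0.80 to 0.95) in cKO. For Herpud1 the bins were at 64.6, 70.1 and 86.8 CPM in WT and at 104, 132 and 177 CPM in cKO (0.43 and 0.76). Serp1 ranged little in WT, with 140, 138 and 149 CPM, and further in cKO, with 131, 164 and 205 CPM. ER folding genes were also higher in the high bin, in more cases in WT. The interval of the high over the low bin lay above 0 for 11 of 15 in WT (median 0.30), among them Sdf2l1 (0.69), Dnajb11 (0.51) and Hspa5 (0.43), and for 7 of 15 in cKO (median 0.12). Over all genes it did for 9.54% in WT and 16.1% in cKO.

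Within the same ATF4 bin, Hspa9 and Herpud1 were higher in cKO in each of the 3 bins, and Serp1 in the middle and high bins. The same bin is not an equal ATF4 level in both libraries. The high bin has no upper bound, and the make-up of the list differed. Phgdh made 224 of its 390 CPM in WT and 445 of its 1813 CPM in cKO. In the cells without an ATF4 UMI (3976 in WT, 802 in cKO) the log2 ratio of cKO over WT was 0.65 (0.56 to 0.74) for Hspa9 and 0.69 (0.55 to 0.82) for Herpud1, and -0.10 (-0.21 to 0.01) for Serp1. Serp1 was at 0.25 (0.18 to 0.32) in the middle bin and 0.46 (0.30 to 0.62) in the high bin. Hspe1 (0.58, 0.54 to 0.63), Hspd1 (0.43, 0.36 to 0.49) and Dnaja1 (0.53, 0.47 to 0.60) were also higher in cKO in the low bin. Most ER folding genes were lower in cKO within each bin, with the interval below 0 for 10, 12 and 11 of 15 in the low, middle and high bins, beside 25.9%, 36.3% and 22.7% of all genes. Calr was at -0.75 in the low and -1.10 in the high bin, Hspa5 at -0.37 and -0.64, and Sdf2l1 at -0.48 and -1.21. Of the cytosolic genes, Hspa8 turned from 0.26 in the low bin to -0.17 (-0.22 to -0.12) in the high bin, which held 350 WT cells, and Hspa4 from 0.34 to -0.11 (-0.30 to 0.09). Within cKO the 7 cytosolic genes at the minimum level ranged by at most 0.15 in either direction between the high and low bin. Within WT the interval lay above 0 for 5 of these 7 (median 0.28), with Hspa4 at 0.51, Hspa8 at 0.33 and Hsp90aa1 at 0.28. A thinned cell with 0 UMIs may still express these genes.

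**Figure D4:**
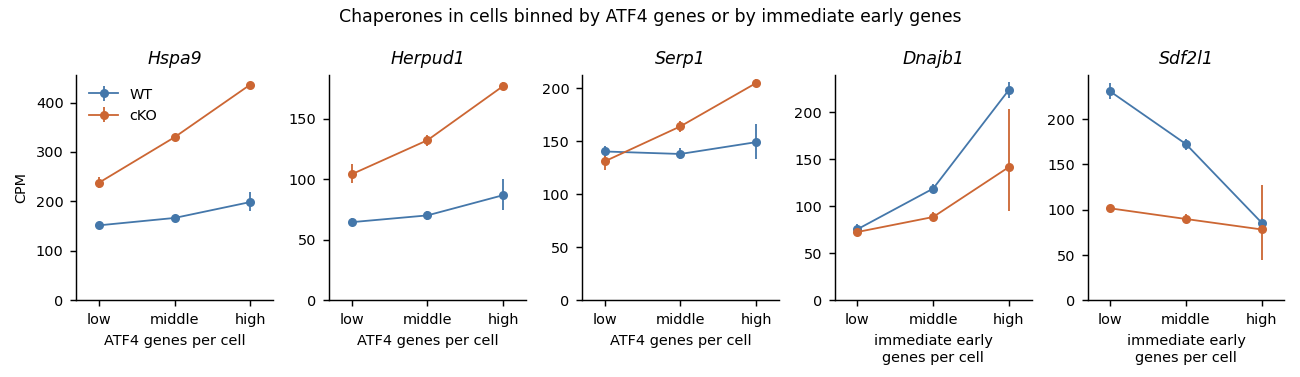
CPM of 5 chaperone genes in WT and cKO cells binned by ATF4 target genes (low 0, middle 1 to 2, high 3 or more UMIs per thinned cell) or by immediate early genes (low 0 to 4, middle 5 to 14, high 15 or more UMIs), with bars for the 95% counting interval. Hspa9 and Herpud1 are highest in the high ATF4 bin of cKO, and the WT and cKO levels of Dnajb1 meet in the low immediate early bin.

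In WT, Dnajb1 differed between gates, as given above, and by the cycling split. It was at 212 CPM in not cycling and 133 CPM in cycling WT cells (log2 ratio of cycling over not cycling -0.67, -0.79 to -0.55). It also went with the immediate early genes, which are induced by stimulation and by tissue handling. In WT cells with 0 to 4, 5 to 14 and 15 or more UMIs of the 15 genes, Dnajb1 was at 75.8, 119 and 224 CPM, a log2 ratio of high over low of 1.56 (1.45 to 1.67). The bins of cKO cells were at 72.8, 88.8 and 142 CPM, the last from 55 cells only. In the low bin (1641 WT and 6549 cKO cells) the ratio of cKO over WT was -0.06 (-0.16 to 0.05), against -0.88 over all cells. The gap in Dnajb9 also narrowed there, to 13.9 CPM in WT and 10.8 CPM in cKO (-0.37, -0.61 to -0.11). Calr and Sdf2l1 behaved otherwise. They were lower in WT cells with more immediate early UMIs, at 644, 558 and 373 CPM and at 230, 172 and 85.7 CPM, and their ratios in the low bin were -1.17 (-1.21 to -1.13) and -1.18 (-1.25 to -1.12), further from 0 than over all cells. In WT, 14 of the 15 ER folding genes were lower in the high than in the low bin, Dnajb9 being the exception. The interval also lay below 0 for 3 of 3 translocation, 3 of 3 mitochondrial and 4 of 7 cytosolic genes, and for 24.3% of all genes. In cKO, where the high bin held 55 cells, the interval lay above 0 for 3 of the 15 and below 0 for 0, with a median of 0.31, beside 11.6% and 8.05% of all genes and their median of 0.26. In that high bin the ratios of cKO over WT were -0.07 (-0.44 to 0.25) for Calr and -0.09 (-0.94 to 0.58) for Sdf2l1. The interval lay above 0 for 6 of the 15 ER folding genes there, among them Hsp90b1 (0.78, 0.38 to 1.13) and Hspa5 (0.75), and below 0 for 0, beside 8.03% and 5.23% of all genes. Other genes turned the opposite way in it, with Hspe1 at -0.38 (-0.75 to -0.06), Hsp90aa1 at -0.28 (-0.57 to -0.02), Hsp90ab1 at -0.27 (-0.45 to -0.09) and Hspd1 at -0.31 (-0.81 to 0.12). Within cKO all 3 mitochondrial genes were lower in the high than in the low bin, with a median of -1.17. The bins also differed in depth, with medians of 5887 UMIs in the low and 3381 UMIs in the high WT bin before thinning, and in lineage, and the part of either in these values was not tested.

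A set of 34 cells in the cKO library held 20 or more UMIs of Jchain, the joining chain of secreted antibody, and 0 of 8142 WT cells did, which allows a share of up to 0.0368%. All of the plasma cell markers examined were present in them, with Mzb1 and Xbp1 in 34 of 34 cells, Sdc1 in 29, Tnfrsf17 in 27, Irf4 in 8 and Prdm1 in 5. They came through a sort for Lin- Sca-1+ c-Kit+ cells. Compared with the other cKO cells, 17 of 30 genes at 50 CPM or more were higher and 8 lower, against 19.6% and 54.8% of all genes at that level. Jchain alone took 210445 CPM of their total, and with it left out 19 were higher and 8 lower, against 26.1% and 40.4% of all genes on that scale.

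ER folding and decay genes were higher in these cells, and cytosolic and mitochondrial chaperones lower. Edem1 was at 1939 CPM, against 16.8 CPM in the other cKO cells, a 115-fold difference, with UMIs in 31 of the 34 cells. Herpud1 was at 1529 and 159 CPM, Hsp90b1 at 2308 and 241 CPM, Creld2 at 916 and 56.2 CPM, and Pdia4 at 779 and 52.3 CPM. P4hb (101 and 105 CPM), Canx (107 and 140 CPM), Pdia3 (428 and 325 CPM) and Calr (398 and 287 CPM) were the ER folding genes under the threshold of size. With Jchain left out of the total, Calr (0.82) and Pdia3 (0.75) passed it, which made 13 of 15 higher. On the other side were Hspa9 at 59.5 and 391 CPM (log2 ratio -2.65, -3.78 to -1.84), Hspd1 at 95.2 and 447 CPM, Hsp90ab1 at 619 and 1977 CPM and Hspa8 at 559 and 1317 CPM. Dnajb1 was the exception among the cytosolic genes at 50 CPM or more, with 161 and 75.8 CPM. Below that level, Hspa1a had 7 UMIs in 2 of the 34 cells and Hspa1b 3 UMIs in 1.

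**Figure D5:**
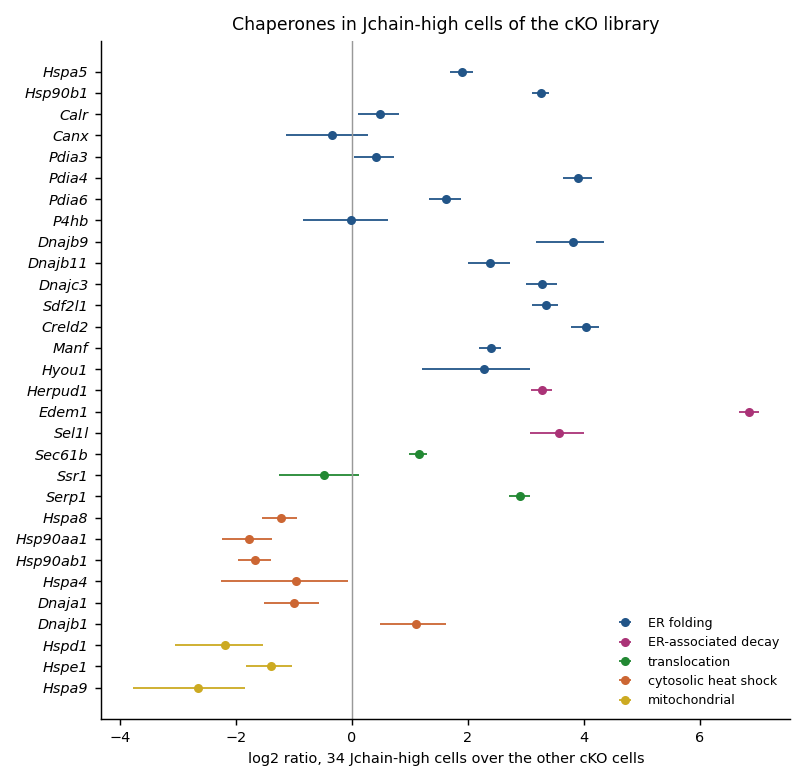
Log2 ratio of 34 Jchain-high cells over the other cells of the cKO library for the 30 chaperone genes at 50 CPM or more in either set, with bars for the 95% counting interval. ER genes lie mostly right of 0, with Edem1 farthest, and cytosolic and mitochondrial genes mostly left.

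Other genes of the same pathways were taken from lists over all cells, and the counts below stand against 9.03% of all genes called higher and 17.5% called lower. Of 10 genes of the unfolded protein response, 9 were at the minimum level, of which 4 were called higher and 1 lower. Stc2 (0.162 CPM in WT, 19.5 CPM in cKO, log2 ratio 6.81), Ddit3, which encodes CHOP (22.4 and 97.7 CPM, 2.13), Atf4 (67.2 and 217 CPM, 1.69) and Xbp1 (73.5 and 165 CPM, 1.16) were higher. Ppp1r15a, which encodes the stress-induced eIF2alpha phosphatase subunit GADD34, was lower (107 and 57.8 CPM, -0.89), and Mbtps2 and Mbtps1, the proteases that release ATF6, were at -0.50 and -0.36. The tenth, Eif2ak3, which encodes PERK, was under the minimum level in both, with 4.20 CPM (WT) and 2.38 CPM (cKO) (181 and 210 UMIs, -0.82, -1.11 to -0.52). Xbp1 was at 159 CPM in cKO without the Jchain-high cells. Stc2 and Ddit3 also belong to the ATF4 list.

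Of 10 further ER-associated decay genes, 1 was called higher and 1 lower, so the share called higher was near that of all genes. They were Derl1 (0.53) and the lectin Os9 (73.5 and 41.1 CPM, -0.84). The other named genes at the ends of this list were Ube2j1 (0.38), Edem2 (-0.48) and Derl2 (-0.21). Of 17 translocation and processing genes, 1 was called higher, the channel subunit Sec61a1 (0.52), and 0 lower, with Srp9 at 0.34 and Rpn1 at 0.33, and Sec62 (-0.23), Spcs3 (-0.14) and Ddost (-0.13) at the low end. Of 10 other ER folding genes, 3 were called higher and 0 lower. Mzb1 (1.16 and 12.4 CPM, 3.40) was mostly in the Jchain-high cells, with 4.77 CPM elsewhere in cKO. Fkbp11 (26.8 and 67.8 CPM, 1.34) and Pdia5 (0.62) were the others, and Uggt1 (-0.21), Mesdc2 (-0.17) and Txndc11 (-0.11) had the lowest ratios.

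Of 19 cytosolic co-chaperone genes, 2 were called higher and 3 lower, shares near those of all genes. The collagen chaperone Serpinh1, which works in the ER though it is a heat shock gene, was at 0.766 CPM in WT cells and 10.5 CPM in cKO cells (3.76), and Dnaja2 was at 0.63, followed by the HSP90 co-chaperone Ptges3 (0.45). Hsf2 (-0.73), Dnajb4 (-0.57) and Dnajb6 (-0.51) were lower. None of the 7 subunits of the chaperonin TRiC at the minimum level was called. Each had a ratio above 0, beside 3980 of 9137 over all genes, from Cct3 (0.13), Cct5 (0.20) and Tcp1 (0.24) to Cct8 (0.35), Cct2 (0.41) and Cct4 (0.47). Of 10 mitochondrial proteostasis genes, 4 were called higher and 0 lower. They were the transcription factor Atf5 (3.13 CPM in WT, 87.9 CPM in cKO, 4.81), the co-chaperone of HSPA9 Dnaja3 (0.95), and the proteases Clpp (0.62) and Lonp1 (0.58). The protease Spg7 (-0.45), Timm44 (-0.14) and Clpx (-0.03) were lowest. Atf5 is also in the ATF4 list.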

How the data were processed

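Droplet libraries of sorted LSK cells, 1 WT and 1 cKO by their genotype labels, were analysed from the deposited matrices of raw UMI counts. Per the submitters' processing notes, the authors used Cell Ranger 6.0.0 on mm10. Coordinates came from GENCODE M21 by gene ID. The genes, lists, gates and comparisons were chosen with earlier results of these data known.

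The study's limits were applied (over 200 genes, an upper bound of 4000 genes with 10% mitochondrial UMIs in WT and of 4500 genes with 5% in cKO, and under 5% haemoglobin UMIs). Doublets were scored by simulated pairs among the 50 nearest neighbours (20 components, 1500 variable genes) and removed at 0.8% per 1000 barcodes, 7.09% of WT and 7.41% of cKO barcodes. UMIs were summed over cells and scaled to CPM with exact Poisson intervals. Log2 ratios (0.5 prior counts) have exact conditional binomial intervals. Genes at 5 CPM in a library, and in gates with 20 UMIs over both, were used, except 50 CPM for Jchain-high cells.

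Gates were set on cells thinned to 2000 UMIs by 3 distinct markers (MHC class II gate: 4; by summed UMIs, GMP gate: 10, mature neutrophil gate: 20), and cells in more than 1 gate were left out. All 36 genes were named; in gates, those called or of opposite sign with intervals that exclude 0; in pathway lists, the 3 highest and 3 lowest ratios. Selenos, Cct6a and Trbc1 were not analysed here, and 1 gene that the rule names is not reported here. Calculations were tested on simulated data. Alternatives were TMM (edgeR 4.0.16, R 4.3.3) and median-of-ratios scaling, other totals, cell averaging, thinning, other filters and gates, subsets of cells and a log2 threshold of 1. The runs without GMP-gated cells and without Jchain-high not cycling cells, and the ATF4 element, were added after the data were seen. Python 3.11, numpy 2.4.6, scipy 1.17.1, pandas 2.3.3, scikit-learn 1.9.0 and matplotlib 3.10.9 were used.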

Additional observations from a re-analysis of the deposited data

Results flagged for a closer look

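For 7 genes the log2 ratio of cKO over WT had opposite signs in 2 gates, with both counting intervals excluding 0. They were 7 of 34 (20.6%), beside 573 of all 9293 genes at the minimum level in 2 or more of the 6 groups of cells (6.17%). An interval excludes 0 more readily for a gene with more UMIs. The 7 were at 146 to 834 CPM in WT over all cells, while the minimum level is 5 CPM, and the shares were not matched for level. With 1 library per genotype the differences were not tested across samples. The erythroid minus the GMP gate differed by 0.461 for Hspa5 (0.24 and -0.22), by 0.655 for Hsp90b1 (0.46 and -0.20) and by 0.766 for Pdia6 (0.33 and -0.44). The LMPP minus the megakaryocyte gate differed by 0.915 for Canx (0.50 and -0.41) and by 0.897 for Pdia3 (0.41 and -0.49). The HSC minus the megakaryocyte gate differed by 1.16 for Sdf2l1 (0.24 and -0.91), and the HSC minus the GMP gate by 0.60 for Sec61b (0.39 and -0.21). In each case the lowest ratio was that of the GMP or megakaryocyte gate, which held 92 and 55 cKO cells. Sdf2l1 was also lower in cKO in cells of no gate (3833 in WT, 5951 in cKO), with its interval below 0.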

How the results depend on the processing

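Herpud1, Hspa9 and Hspe1 were called higher, and Dnajb1 and Dnajb9 lower, under each of the 13 alternative settings (log2 ratios of 1.19 to 1.47, 1.26 to 1.47, 0.72 to 0.94, -1.38 to -0.78 and -1.13 to -0.67). Calr kept its direction in all 13 and was called in 9, Hspd1 and Dnaja1 kept it in all 13 and were called in 11 and 12, and Sdf2l1 and Pdia4 were called lower in 7 and 6. The number of genes called higher, 5 as reported, was 8 with the total taken without mitochondrial and ribosomal protein genes, 8 with each cell scaled and then averaged, 17 in not cycling cells, 14 in those without Jchain-high cells, 9 without GMP-gated cells and 2 at a log2 threshold of 1. The number called lower, also 5, was 3 with cells averaged, 3 with cells thinned, 2 in not cycling cells with or without Jchain-high cells, 2 at the same mix of gates, 2 without GMP-gated cells and 0 at a threshold of 1. The ER folding median of -0.09 was -0.030 with TMM, -0.027 with median-of-ratios scaling, 0.0072 with the reduced total, 0.076 averaged, 0.074 thinned, 0.45 in not cycling cells (0.32 without Jchain-high cells), 0.11 at the same mix and 0.17 without GMP-gated cells. The ER-associated decay median of 0.18 was 0.44 averaged, 0.41 thinned, 0.87 in not cycling cells (0.42 without Jchain-high cells), 0.39 at the same mix and 0.41 without GMP-gated cells. The cytosolic median of 0.34 was 0.39 with TMM, 0.40 with median of ratios, 0.43 with the reduced total, 0.41 averaged, 0.51 in not cycling cells (0.52 without Jchain-high cells), 0.40 at the same mix and 0.47 without GMP-gated cells. In not cycling cells Pdia4 turned to 0.45 (0.22 without Jchain-high cells) and Sdf2l1 to 0.70 (0.45). In the HSC gate set on scaled counts (180 WT and 74 cKO cells), P4hb was at -0.38, Serp1 at -0.42 and Hspd1 at -0.027. The causes of these turns were not tested. The median over all genes, -0.06 as reported, ranged from -0.11 in not cycling cells to 0.03 with the reduced total. The reduced total, TMM and median-of-ratios scaling move all genes alike, so the changes under them are not particular to these genes. Except for the not cycling cells above, the share of all genes called under each setting is not given here. Settings that left under 50 cells of a gate in a library gave no value, among them the stricter GMP gate and the not cycling cells of the LMPP, GMP, megakaryocyte and erythroid gates. The depth limits Hspa1a, Hspa1b, Syvn1 and Atf6 and most values of the megakaryocyte gate.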
